A study of Sus scrofa with 12 samples.

Results

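The genes described here encode enzymes that make or use up lysophosphatidylcholine (LPC), measured by RNA sequencing in primary porcine aortic valve interstitial cells (paVICs), the fibroblast-like cells of the aortic valve leaflet. Members were chosen by gene name from a list of 10 enzymes. Of these, 9 had a row in the count table of 31908 genes, namely the phospholipases A2 PLA2G4A and PLA2G6, the lysophospholipases LYPLA1 and LYPLA2, and the acyltransferases LPCAT1, LPCAT2, LPCAT3, LPCAT4 and LPGAT1. The lysosomal phospholipase PLA2G15 had none and was not analysed here. All 9 passed the filter on low counts, as did 13216 genes of the whole table.

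Wild-type paVICs were grown as 3 separate primary isolations, and each isolation gave 1 library to each of 4 groups, so that n = 3 throughout. Cells received vehicle (0.6% DMSO and 0.1% ethanol), 10 µM LPC with 0.6% DMSO, 60 µM dantrolene with 0.1% ethanol, or LPC + dantrolene for 24 h. The study dissolved LPC in ethanol and dantrolene in DMSO, so each agent alone was given with the solvent of the other. Dantrolene is an inhibitor of the ryanodine receptor, which releases calcium from the endoplasmic reticulum. Leaflets of several pig hearts were pooled in each isolation, so a replicate is a pool of animals and not a single pig.

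Phosphatidylcholine, the main phospholipid of animal cell membranes, is constantly taken apart and rebuilt in what is called the Lands cycle. A phospholipase A2 cuts off the fatty acid at the middle carbon of the glycerol, which frees that fatty acid and leaves LPC. An LPC acyltransferase joins a new fatty acid to the LPC and so returns it to phosphatidylcholine, while a lysophospholipase removes the last fatty acid and ends the molecule as a lysophospholipid. LPC itself is carried by oxidised lipoproteins and is known in valve research as a lipid that accumulates in calcified leaflets.

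Each library held 16489684 to 24105935 counts, and 3 counts corresponded to 0.114 to 0.186 CPM, the count divided by the library's total as scaled with TMM factors and written on the usual CPM scale. Replicate 2 of LPC + dantrolene stood apart, correlating at 0.901 to 0.917 with the other libraries of its group against 0.949 to 0.975 among all other pairs of replicates, so results that rest on it are given with and without it. Fibroblast markers were abundant in every library, summing over 9 genes to between 44388 and 81684 CPM. The 6 leukocyte markers summed to 10.5 to 25.7 CPM. Nearly all of that was CD14 (10.3 to 24.5 CPM), which is not restricted to leukocytes, while CSF1R, ITGAM and AIF1 reached at most 1.24 CPM and PTPRC and CD3E had 0 counts in every library. Endothelial markers, 6 genes led by PECAM1, summed to 83.2 to 87.0 CPM with vehicle, 62.6 to 70.8 with LPC, 47.1 to 65.3 with dantrolene and 52.8 to 60.4 with LPC + dantrolene. The sums were thus lower in all 9 treated libraries than in any vehicle library.

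On the pig genome (Sscrofa11.1, positions from the RefSeq annotation, whole gene spans), PLA2G4A (ENSSSCG00000023351) lies at chr9:127853581-128164825 and has the longest span of the 9 genes at 311245 bases. LPGAT1 (ENSSSCG00000015603) lies on the same chromosome at chr9:131383684-131505988. PLA2G6 (ENSSSCG00000000110) is at chr5:9713809-9777921, LYPLA1 (ENSSSCG00000006260) at chr4:77083624-77102407 and LYPLA2 (ENSSSCG00000023191) at chr6:81601492-81605914. LPCAT1 (ENSSSCG00000017116) is at chr16:79134396-79173775 and LPCAT2 (ENSSSCG00000002828) at chr6:29999504-30056858. LPCAT3 (ENSSSCG00000027205) is at chr5:63707674-63746369 and LPCAT4 (ENSSSCG00000002235) at chr7:80140969-80155040. Since reads were counted over whole genes, the values below do not separate exons, isoforms or untranslated regions.

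The first comparison asked what 24 h of LPC did to the transcripts of its own metabolic enzymes. Only PLA2G4A, which encodes the calcium-dependent cytosolic phospholipase A2 that releases arachidonic acid, passed the test, and it rose 3.44-fold. The 3 acyltransferases LPCAT1, LPCAT3 and LPCAT4 had lower CPM in every LPC library than in any vehicle library, although none passed the test. The remaining 5 members overlapped between the groups. The plot of CPM by library shows all 9 members in all 12 libraries.

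**Figure D1:**
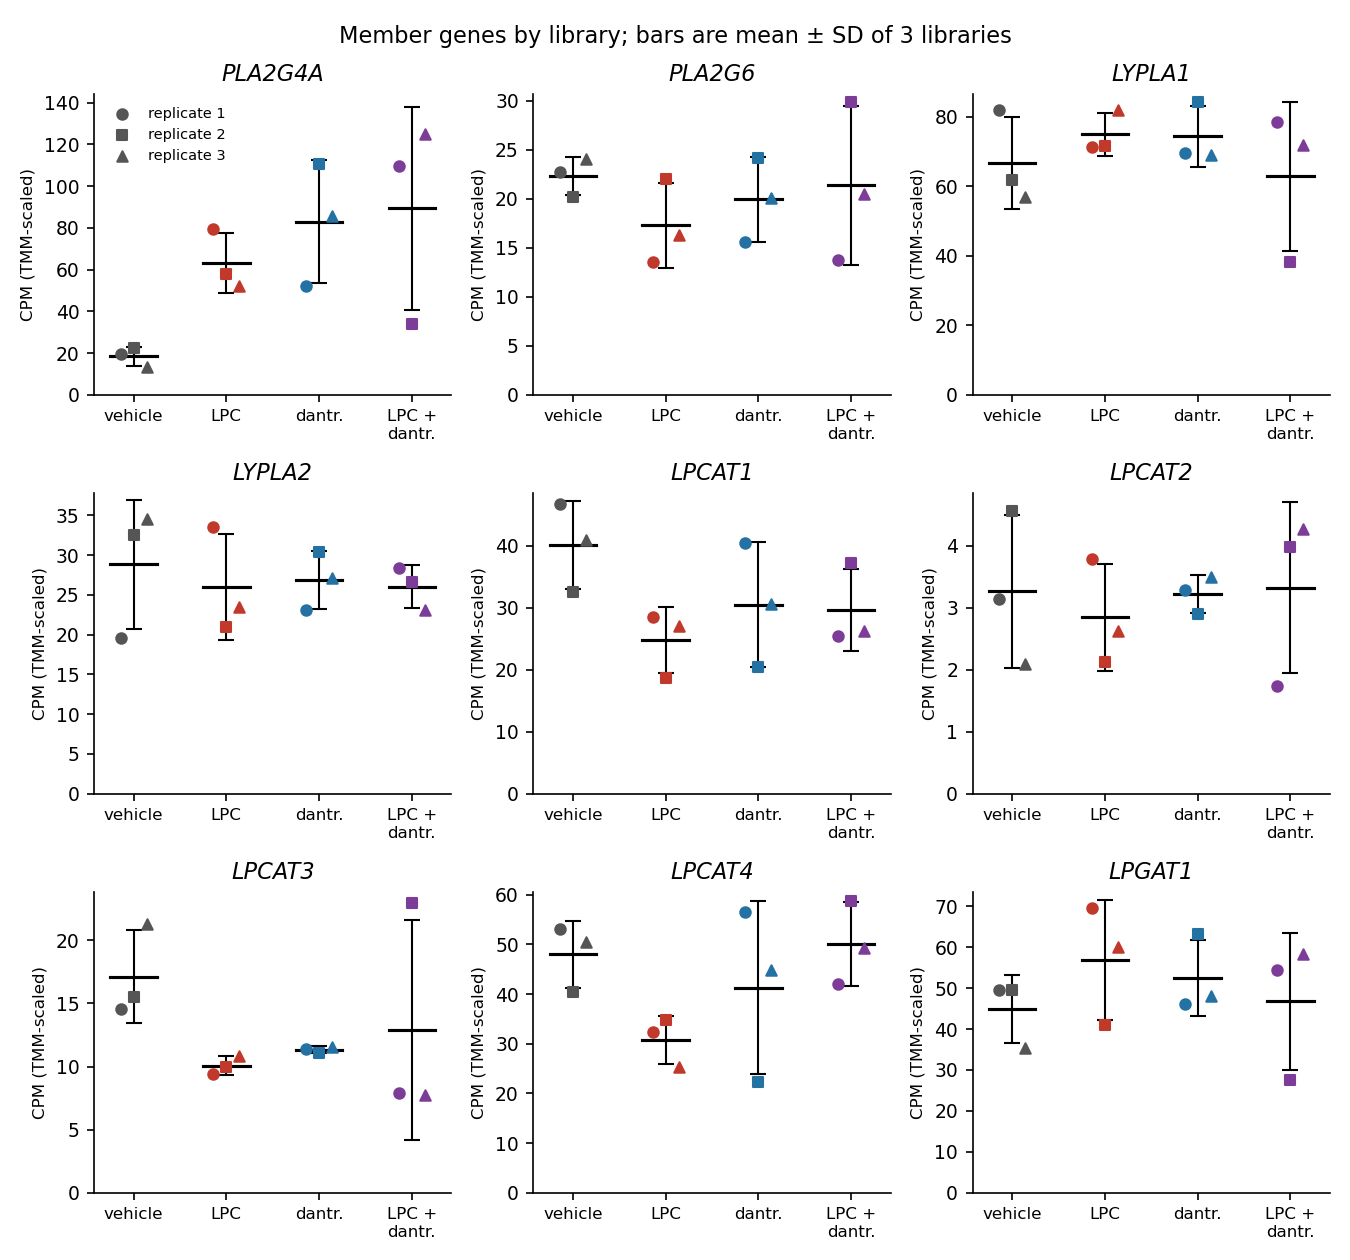
CPM of the 9 member genes (vertical axes, each from 0) in vehicle, LPC, dantrolene and LPC + dantrolene libraries, with the symbol shape giving the replicate and the bars the mean ± SD of 3 libraries. PLA2G4A lies at 13.3 to 22.4 CPM with vehicle and at 33.9 CPM or more in every treated library, and the square of LPC + dantrolene (replicate 2) is the lowest of its group for PLA2G4A, LPGAT1 and LYPLA1 and the highest for PLA2G6, LPCAT1, LPCAT3 and LPCAT4.

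PLA2G4A was at 19.4, 22.4 and 13.3 CPM in vehicle replicates 1, 2 and 3 and at 79.3, 57.8 and 52.3 CPM in the LPC replicates of the same numbers, resting on 229 to 406 and on 1016 to 1548 counts. The groups did not overlap, so the LPC library was necessarily the higher in each of the 3 isolations. Vehicle libraries averaged 18.3 ± 4.61 CPM and LPC libraries 63.1 ± 14.3 CPM (mean ± SD of 3), which gave a log2 fold change of 1.78 (SE 0.36, 95% interval 1.07 to 2.49). The adjusted p was 0.000148 by the quasi-likelihood test of edgeR, with the Benjamini-Hochberg method applied over all 13216 genes. By p it ranked 294 among all genes tested. Endothelial marker sums moved the opposite way to PLA2G4A. None of the 5 endothelial markers tested was called with LPC. PECAM1 and CDH5 were at −0.26 and −0.50 in log2 fold change and VWF and TIE1 at −0.53 and −0.48. TEK, at most 1.30 CPM in a library, went the other way at 1.84. Of the 9 fibroblast markers, 2 were called higher with LPC, LUM (log2 fold change 1.35, adjusted p = 0.00351 in edgeR) and POSTN (1.60, adjusted p = 0.00188), both genes of the extracellular matrix. PDGFRB (−0.54), COL1A1 (−0.48), VIM (−0.34), THY1 (−0.27), COL1A2 (−0.25), COL3A1 (−0.09) and DCN (−0.03) were below 0 and not called. The median of all genes tested was −0.18, so COL3A1 and DCN lay above it, and 8.54% of all genes were called higher. The 9 fibroblast markers summed to 44388 to 67340 CPM with LPC and to 63539 to 72924 CPM with vehicle. The part of cell composition in the PLA2G4A result was not tested. In bulk RNA, fewer cells of a type and less RNA per cell cannot be told apart.

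The other phospholipase A2, PLA2G6, is the calcium-independent enzyme. Its CPM was 22.7, 20.2 and 24.1 with vehicle and 13.5, 22.0 and 16.3 with LPC, so that LPC replicate 2 lay within the vehicle range and the other LPC libraries below it. The log2 fold change was −0.37, with a 95% interval of −1.04 to 0.30.

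LYPLA1 and LYPLA2, named as lysophospholipases and best known today as the thioesterases that remove palmitate from proteins, were likewise not called. LYPLA1 averaged 66.8 ± 13.3 CPM with vehicle and 75.0 ± 6.17 CPM with LPC (log2 fold change 0.17, 95% interval −0.47 to 0.80). LYPLA2 averaged 28.9 ± 8.11 and 26.0 ± 6.67 CPM (log2 fold change −0.15, 95% interval −0.81 to 0.50). These intervals leave out a change as large as that of PLA2G4A for both genes.

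Among the acyltransferases, LPCAT3, which prefers polyunsaturated chains such as arachidonate, was at 14.5, 15.5 and 21.3 CPM with vehicle and at 9.43, 9.94 and 10.9 CPM with LPC. Every LPC library was below every vehicle library. The log2 fold change was −0.76 (SE 0.36, 95% interval −1.47 to −0.05), with an unadjusted p of 0.0352 and an adjusted p of 0.250 by edgeR's quasi-likelihood test, and it was not called.

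LPCAT1, which makes saturated phosphatidylcholine and is known from lung surfactant, was at 46.6, 32.5 and 40.9 CPM with vehicle and at 28.5, 18.7 and 27.1 CPM with LPC (log2 fold change −0.69, 95% interval −1.35 to −0.03, adjusted p = 0.277 in edgeR). LPCAT4, which also acts on lysophosphatidylethanolamine, was at 53.1, 40.4 and 50.5 CPM with vehicle and at 32.4, 34.7 and 25.3 CPM with LPC (log2 fold change −0.64, 95% interval −1.30 to 0.02, adjusted p = 0.341 in edgeR). Neither gene overlapped between the groups, so both were necessarily lower in the LPC library of each isolation.

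LPCAT2, which also makes platelet-activating factor, had the fewest counts of the 9 genes, 33 to 85 in a library. At that depth its log2 fold change of −0.20 had a 95% interval from −1.15 to 0.75, and a change within those bounds was not detectable. LPGAT1, named for the acylation of lysophosphatidylglycerol, was at 49.6, 49.6 and 35.3 CPM with vehicle and 69.5, 40.9 and 60.1 CPM with LPC, which overlapped (log2 fold change 0.34, 95% interval −0.31 to 0.99).

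Counted over the list, 1 of 9 members (11.1%) was called higher with LPC, where 8.54% of all genes tested were, and 0 were called lower, where 0.144% were. That share is close to the background and says nothing particular about the enzymes as a list. Non-overlap gave 3 of 9 members lower against 10.6% of all genes, and 1 of 9 higher against 16.6%. At an unadjusted p under 0.05, 2 members were lower (LPCAT1 and LPCAT3), against 2.82% of all genes. The members' median log2 fold change was −0.20 beside −0.18 for all genes. Scaled to total counts alone, the median of all genes moved to −0.0023, and LPCAT3, LPCAT1 and LPCAT4 stood at −0.59, −0.52 and −0.46.

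**Figure D2:**
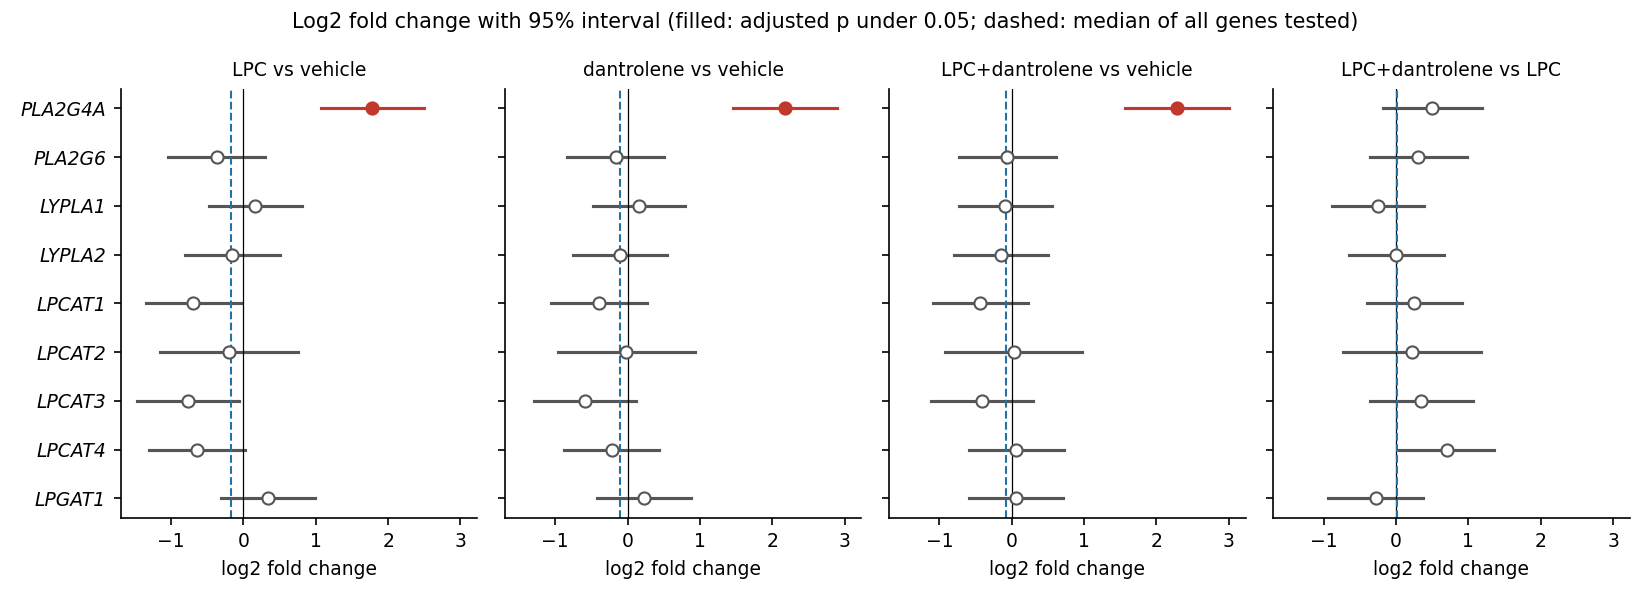
Log2 fold change (horizontal axis) of each member in 4 comparisons, with its 95% interval as a line. Filled symbols mark an adjusted p under 0.05 in edgeR and the dashed line the median of all genes tested. PLA2G4A is filled in the 3 comparisons with vehicle, at 1.78, 2.18 and 2.29, and no other member is filled.

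The second comparison asked whether dantrolene alone moved these genes in cells given no LPC. The same vehicle libraries served as the control, so its values are not independent of those above. PLA2G4A rose 4.52-fold and was again the only member called, while LPCAT3 was lower in every dantrolene library than in any vehicle library without passing the test.

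In dantrolene replicates 1, 2 and 3, PLA2G4A was at 52.1, 110.7 and 85.8 CPM, against 13.3 to 22.4 CPM with vehicle. All 3 libraries were above the vehicle range, although they differed among themselves by more than the LPC libraries did. The mean was 82.9 ± 29.4 CPM, the log2 fold change 2.18 (SE 0.36, 95% interval 1.46 to 2.89, adjusted p = 1.33e-05 in edgeR), and the gene ranked 45 by p. Endothelial marker sums were lower here as well, and CDH5, the endothelial cadherin, was called lower (log2 fold change −1.20, adjusted p = 0.0111 in edgeR). It was the only one called of the 5 endothelial markers tested, and TEK was at 0.10. Among the fibroblast markers LUM was called higher (1.59), as it was with LPC + dantrolene (1.35). No other fibroblast marker was called in either comparison. POSTN was above 0 in both (0.84 and 1.07), and the rest were below 0. The 9 fibroblast markers summed to 45268 to 57734 CPM with dantrolene, also wholly below the 63539 to 72924 CPM of vehicle. A lower sum with dantrolene was thus not particular to the endothelial markers. With LPC + dantrolene the fibroblast sums, 50858 to 81684 CPM, overlapped those of vehicle.

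LPCAT3 was at 11.4, 11.1 and 11.6 CPM with dantrolene, a narrow range that lay below the 14.5 CPM of the lowest vehicle library. Its log2 fold change was −0.59 (95% interval −1.30 to 0.11, adjusted p = 0.454 in edgeR), which did not pass. LPCAT1 was at 40.5, 20.4 and 30.6 CPM and overlapped with vehicle. So did LPCAT4, whose dantrolene libraries ranged from 22.4 to 56.6 CPM. The 8 members other than PLA2G4A lay between −0.59 and 0.23 in log2 fold change, and their lowest adjusted p was that of LPCAT3.

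With dantrolene, 1 of 9 members was called higher beside 7.54% of all genes, and 0 lower beside 1.26%. At an unadjusted p under 0.05 there were 0 lower members too, beside 4.05% of all genes. DESeq2 called 1 member higher and 0 lower, beside 7.14% and 0.772% of all genes. For non-overlap, the 1 member lower compares with 11% of all genes and the 1 higher with 16.1%. The members' median was −0.10 and that of all genes −0.11, or 0.13 for all genes when scaled to total counts alone.

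The third comparison set LPC + dantrolene against the same vehicle libraries. PLA2G4A rose 4.87-fold, and it was once more the only member called. It was at 109.5, 33.9 and 124.9 CPM in replicates 1, 2 and 3, so replicate 2 was far below the other two but still above the highest vehicle library. The mean was 89.4 ± 48.7 CPM and the log2 fold change 2.29 (SE 0.36, 95% interval 1.56 to 3.01, adjusted p = 7.29e-06 in edgeR). Without replicate 2 of LPC + dantrolene it was 2.73.

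LPCAT3 turned on that library. It was at 7.89, 22.9 and 7.77 CPM in LPC + dantrolene replicates 1, 2 and 3, so that replicate 2 was above every vehicle library and the other two below every one. The log2 fold change was −0.41 (95% interval −1.12 to 0.29, adjusted p = 0.776 in edgeR) with all libraries and −1.07 (adjusted p = 0.0135 in edgeR) without replicate 2, where LPCAT3 was called lower. Over the 18 alternatives this was the only one in which LPCAT3 was called, and it was the only call among the 856 values that the 8 members besides PLA2G4A had under the alternatives of the 6 comparisons. Without replicate 2, genes called lower in this comparison rose from 119 to 413 of 13216, and those called higher from 824 to 1708.

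Of the remaining members, LPCAT1 was at 25.4, 37.2 and 26.2 CPM with both agents (log2 fold change −0.44), and LPCAT4 at 42.1, 58.8 and 49.3 CPM (log2 fold change 0.06). Both overlapped with vehicle. LYPLA1, at 78.5, 38.3 and 71.8 CPM, and LPGAT1, at 54.5, 27.6 and 58.3 CPM, had their lowest library of all 12 in replicate 2. Called members were 1 of 9 higher beside 6.23% of all genes and 0 lower beside 0.9%, and non-overlap gave 1 of 9 higher beside 4.71% and 0 lower beside 5.74%. The medians were −0.06 for the members and −0.08 for all genes, or 0.12 for all genes on total counts alone.

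A ratio of counts within a library does not depend on how libraries are scaled. PLA2G4A counts divided by LPCAT3 counts, a deacylating over a reacylating enzyme, were 0.624 to 1.45 in vehicle libraries, 4.82 to 8.41 with LPC, 4.58 to 9.98 with dantrolene and 1.48 to 16.1 with LPC + dantrolene. Replicate 2 of LPC + dantrolene gave the value of 1.48, just above the vehicle range. Set against each of the other 8 members in turn, PLA2G4A gave 72 ratios in the 9 treated libraries, and 72 of them were above the highest vehicle library. These ratios share the PLA2G4A counts as numerator, so they are not separate results.

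**Figure D3:**
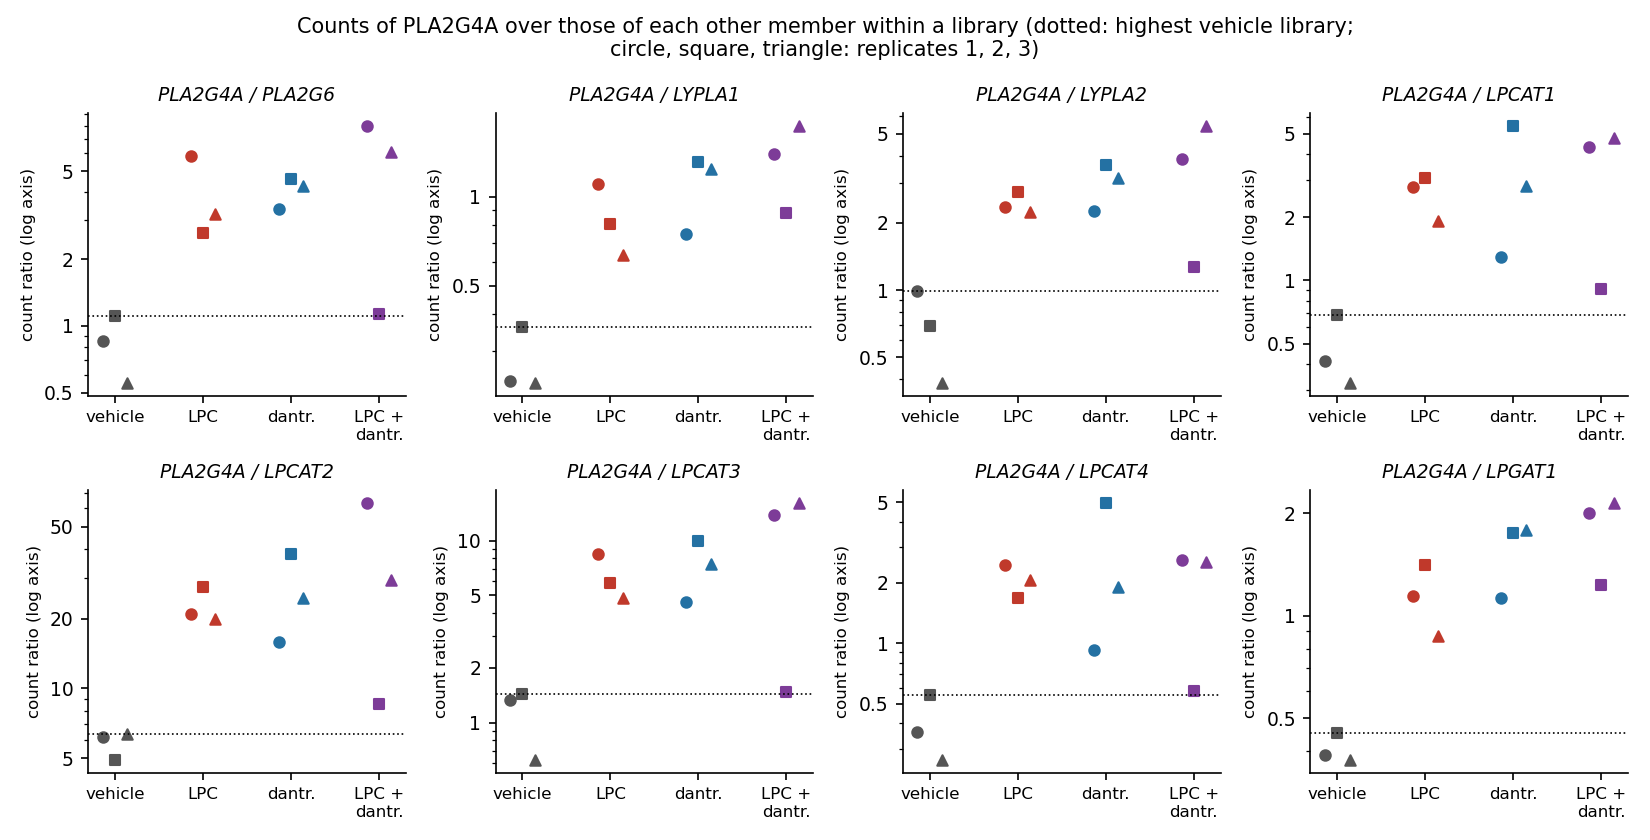
Counts of PLA2G4A divided by those of each other member within a library (log axis) in the 4 groups, with the symbol shape giving the replicate and the dotted line the highest vehicle library. All treated libraries lie above the line in every panel, and replicate 2 of LPC + dantrolene lies closest to it for LPCAT3 (1.48), PLA2G6 (1.14) and LPCAT4 (0.577).

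The fourth comparison asked whether dantrolene altered the enzymes in cells that also received LPC. No member was called, beside 0.507% of all genes in either direction. LPCAT4 was at 32.4, 34.7 and 25.3 CPM with LPC and at 42.1, 58.8 and 49.3 CPM with LPC + dantrolene. It was higher with no overlap, as were 4.86% of all genes, and so necessarily higher in each isolation. Its log2 fold change was 0.70 (95% interval 0.04 to 1.36) with an unadjusted p of 0.0375, and its adjusted p of 0.691 in edgeR did not pass. For PLA2G4A the log2 fold change was 0.50, with a 95% interval from −0.19 to 1.19. LPCAT3 had 0.35 with all libraries and −0.38 without replicate 2 of LPC + dantrolene, so its direction rested on that library. At an unadjusted p under 0.05 there was 1 member, LPCAT4, beside 6.61% of all genes. DESeq2 called 0 members too.

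LPC + dantrolene against dantrolene alone, the effect of LPC in the presence of the inhibitor, gave 0 members called, beside 0.0227% of all genes. At an unadjusted p under 0.05 there were 0 members, where 1.28% of all genes lay, and DESeq2 called 0 as well. PLA2G4A had a log2 fold change of 0.11 (95% interval −0.58 to 0.80). The other 8 members lay between −0.24 and 0.28. Without replicate 2 of LPC + dantrolene, PLA2G4A had 0.49, and LPCAT3 turned from 0.18 to −0.54.

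Whether the LPC effect differed with and without dantrolene was tested as an interaction in the same fit. For PLA2G4A the difference was −1.67 on the log2 scale (SE 0.49, 95% interval −2.65 to −0.69, adjusted p = 0.0297 in edgeR), that is 0.11 with dantrolene less 1.78 without it. The call did not hold throughout. With the replicate number as a block, which pairs the libraries of an isolation, the difference was −1.69 and the adjusted p 0.0944, and the call was kept in 8 of 17 alternatives. Over all 17 the difference ranged from −1.99 to −1.35. The call was lost without vehicle replicate 1, 2 or 3, LPC replicate 1 or 2, or dantrolene replicate 2 (adjusted p from 0.0577 to 0.223). Without replicate 2 of LPC + dantrolene it was −1.35 with an adjusted p of 0.0367.

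PLA2G4A was the 1 member of 9 with a negative interaction that passed, beside 4.49% of all genes, and 0 members passed in the positive direction, beside 0.159%. The count behind that 4.49%, 593 genes, varied with the library left out and with the scaling. It was 4 without LPC replicate 2, 33 without dantrolene replicate 2 and 877 without LPC + dantrolene replicate 3. On total counts alone it was 232. LPCAT3 (0.94, 95% interval −0.06 to 1.94), LPCAT4 (0.92, 95% interval −0.01 to 1.85) and LPCAT1 (0.65, 95% interval −0.28 to 1.58) had positive values that did not pass. Without replicate 2 of LPC + dantrolene the value of LPCAT3 was 0.15, so most of it rested on that library. The median interaction was 0.24 over the members and 0.18 over all genes, and −0.036 over all genes on total counts alone.

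**Figure D4:**
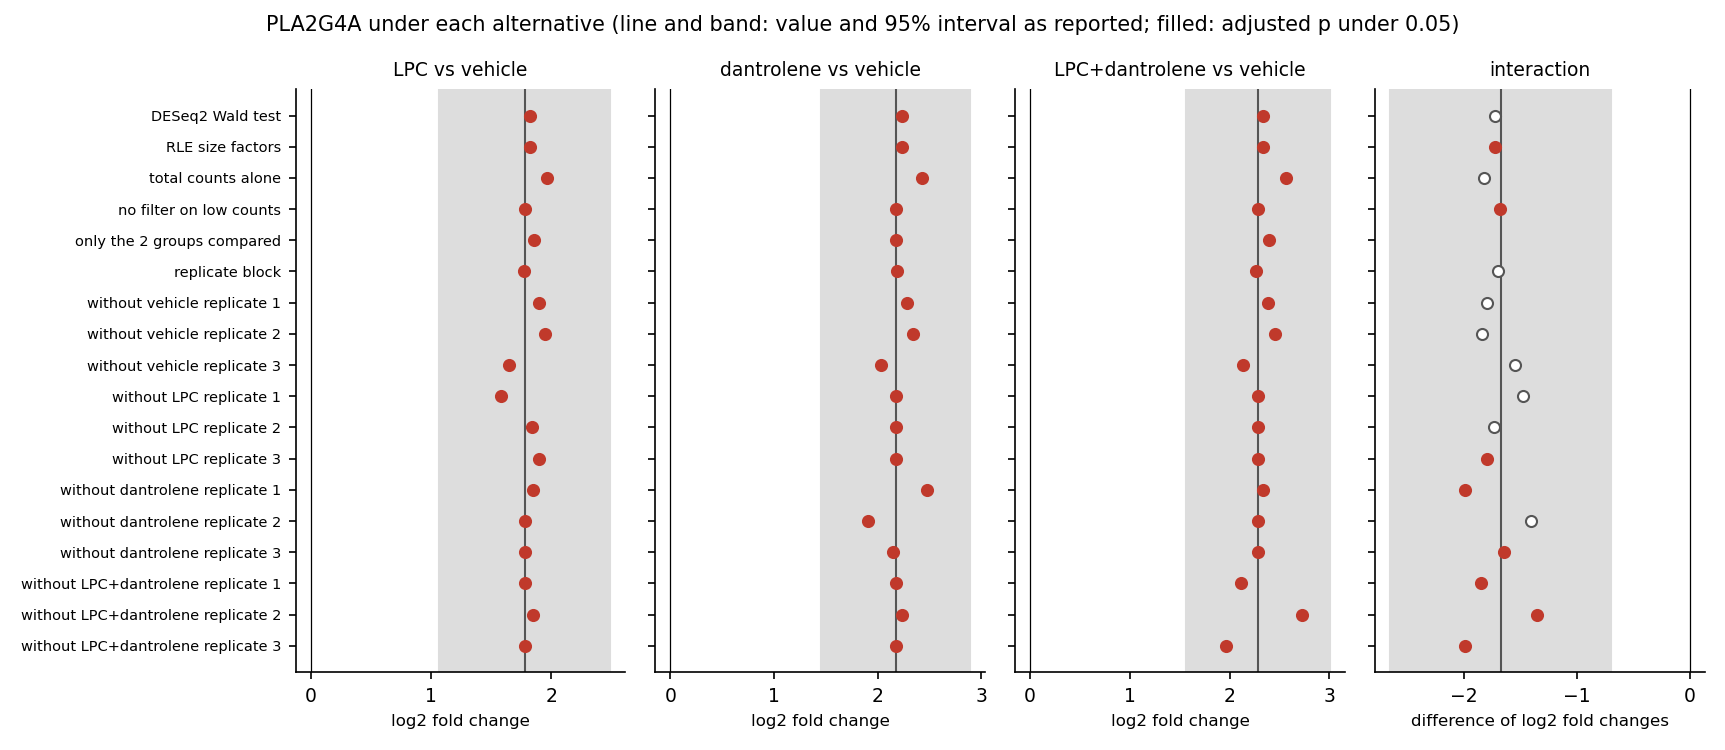
PLA2G4A log2 fold change (horizontal axis) under each alternative (rows) in the 3 comparisons with vehicle, and at the right the difference of the LPC effects with and without dantrolene, with the reported value as a line and its 95% interval as a band. All symbols are filled (adjusted p under 0.05) in the comparisons with vehicle, and 8 of 17 are filled for the interaction.

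Across the 12 libraries the members varied together in part. As a description, Pearson's r of log2 CPM was −0.83 between PLA2G4A and LPCAT3 and −0.71 between PLA2G4A and LPCAT1. It was 0.73 between LPCAT1 and LPCAT4, 0.63 between LPCAT1 and LPCAT3, and 0.83 between LPGAT1 and LYPLA1. Over the 11 libraries without replicate 2 of LPC + dantrolene these became −0.91, −0.69, 0.71, 0.62 and 0.64. The points share groups, library scaling and batch adjustment, so they are not independent.

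The genes whose log2 CPM followed PLA2G4A most closely over the 12 libraries, of 13215 others, were PLK4, a kinase of centriole duplication (r = 0.989), KITLG, the ligand of the receptor KIT (r = 0.987), and TBC1D32, a gene of the primary cilium (r = 0.985). KITLG averaged 19.1 CPM with vehicle, 75.2 with LPC, 110.1 with dantrolene and 102.7 with LPC + dantrolene. Nothing follows from such a likeness about shared function or control.

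Other genes of the same chemistry were counted from 4 lists of 68 genes, of which 46 were tested. Called higher were 4 of 46 with LPC, 4 of 46 with dantrolene and 2 of 46 with LPC + dantrolene. In each of these 0 were called lower, beside 0.144%, 1.26% and 0.9% of all genes. At an unadjusted p under 0.05, 2 were lower with LPC and 1 with dantrolene, beside 2.82% and 4.05% of all genes. With LPC + dantrolene 1 was lower, for which the share of all genes is not given here. As shares, 8.70%, 8.70% and 4.35% of the 46 genes were called higher, against 8.54%, 7.54% and 6.23% of all genes. DESeq2 called 3, 2 and 2 of the 46 higher, beside 8.22%, 7.14% and 5.8% of all genes. It called 0 lower, beside 0.159%, 0.772% and 0.658% of all genes. The medians over the 46 genes were −0.34, −0.21 and −0.10, beside −0.18, −0.11 and −0.08 for all genes. None of 12 other acyltransferases of lysophospholipids or glycerol phosphate was called in any of the 6 comparisons, either by edgeR or by DESeq2. Of their 72 values, 6 had an unadjusted p under 0.05, a count not set against a share of all genes. With LPC they ranged from −0.57 for AGPAT1 to 0.81 for AGPAT5, both acyltransferases of lysophosphatidic acid.

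Among 9 other phospholipases A tested, the only one called was PNPLA8, a calcium-independent enzyme of mitochondria and peroxisomes. It was at 16.0, 9.11 and 7.44 CPM with vehicle and at 33.4, 41.6 and 36.5 CPM with LPC, far apart, and rose with a log2 fold change of 1.78. With dantrolene it was at 21.8, 40.1 and 28.5 CPM and rose by 1.47 on the log2 scale (adjusted p = 0.00335 in edgeR). That call was lost without vehicle replicate 2 (0.0666) or dantrolene replicate 2 (0.0866), whereas the call with LPC was kept in all 18 alternatives.

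In LPC + dantrolene, PNPLA8 was at 28.7, 7.14 and 28.4 CPM, with replicate 2 below every vehicle library. The log2 fold change was 0.98 (adjusted p = 0.0994 in edgeR) with that library and 1.44 (adjusted p = 0.000184) without it, when it was called. Leaving out vehicle replicate 1 gave 1.44 as well (adjusted p = 0.0405).

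Of 12 tested enzymes that break lysophospholipids down further, GPCPD1, which splits glycerophosphocholine into choline and glycerol phosphate, was called in all 3 comparisons with vehicle. It was at 9.97, 4.20 and 2.67 CPM with vehicle, 14.1, 16.9 and 7.97 with LPC, 16.5, 15.5 and 20.6 with dantrolene, and 22.4, 7.83 and 51.6 with LPC + dantrolene. Only the dantrolene libraries were all above the vehicle range. The log2 fold changes were 1.20 (adjusted p = 0.0444 in edgeR, 0.0959 with the replicate block), 1.63 and 2.27. Without vehicle replicate 1, the highest vehicle library, they were 1.99, 2.42 and 3.04, and without replicate 3 of LPC + dantrolene the last was 1.42. The call with LPC was lost in 9 of 18 alternatives, among them leaving out vehicle replicate 2 or 3, LPC replicate 1 or 2, dantrolene replicate 2 or LPC + dantrolene replicate 1 (adjusted p from 0.0631 to 0.432), and with DESeq2 (0.382). The call with dantrolene was lost with DESeq2 (0.119) and without vehicle replicate 2 (0.0892). ENPP2 (autotaxin), which turns LPC into lysophosphatidic acid, had log2 fold changes of −0.44, 1.25 and 0.82, and none passed.

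The list of phosphatidylcholine synthesis held 13 tested genes, and those called belong to the parallel branch that makes phosphatidylethanolamine. ETNK1, the ethanolamine kinase, was at 11.2, 9.40 and 6.22 CPM with vehicle and at 29.7, 34.3 and 30.3 CPM with LPC. It rose by 1.81, 1.67 and 1.75 on the log2 scale with LPC, dantrolene and both. SELENOI, the ethanolamine phosphotransferase, was at 11.1, 9.29 and 5.69 CPM with vehicle and at 19.6, 16.7 and 22.7 CPM with LPC.

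SELENOI rose by 1.17 with LPC (adjusted p = 0.0240 in edgeR, 0.0717 with the replicate block) and by 1.11 with dantrolene (adjusted p = 0.0363, 0.0825 with the block), and these calls were lost in 6 and in 8 of 18 alternatives. With LPC they were lost without vehicle replicate 2 or 3 or any one LPC library (adjusted p from 0.0785 to 0.192), and with dantrolene without vehicle replicate 2 or 3, LPC replicate 1 or 2, or dantrolene replicate 2 or 3 (0.0590 to 0.270). With both agents its log2 fold change was 0.93 (adjusted p = 0.125 in edgeR), or 1.38 (adjusted p = 0.000425) without replicate 2 of LPC + dantrolene. The interaction was called for PNPLA8 (−2.27) and ETNK1 (−1.74), 2 of the 46 genes (4.35%, beside 4.49% of all genes). That of ETNK1 was lost in 7 of 17 alternatives.

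**Figure D5:**
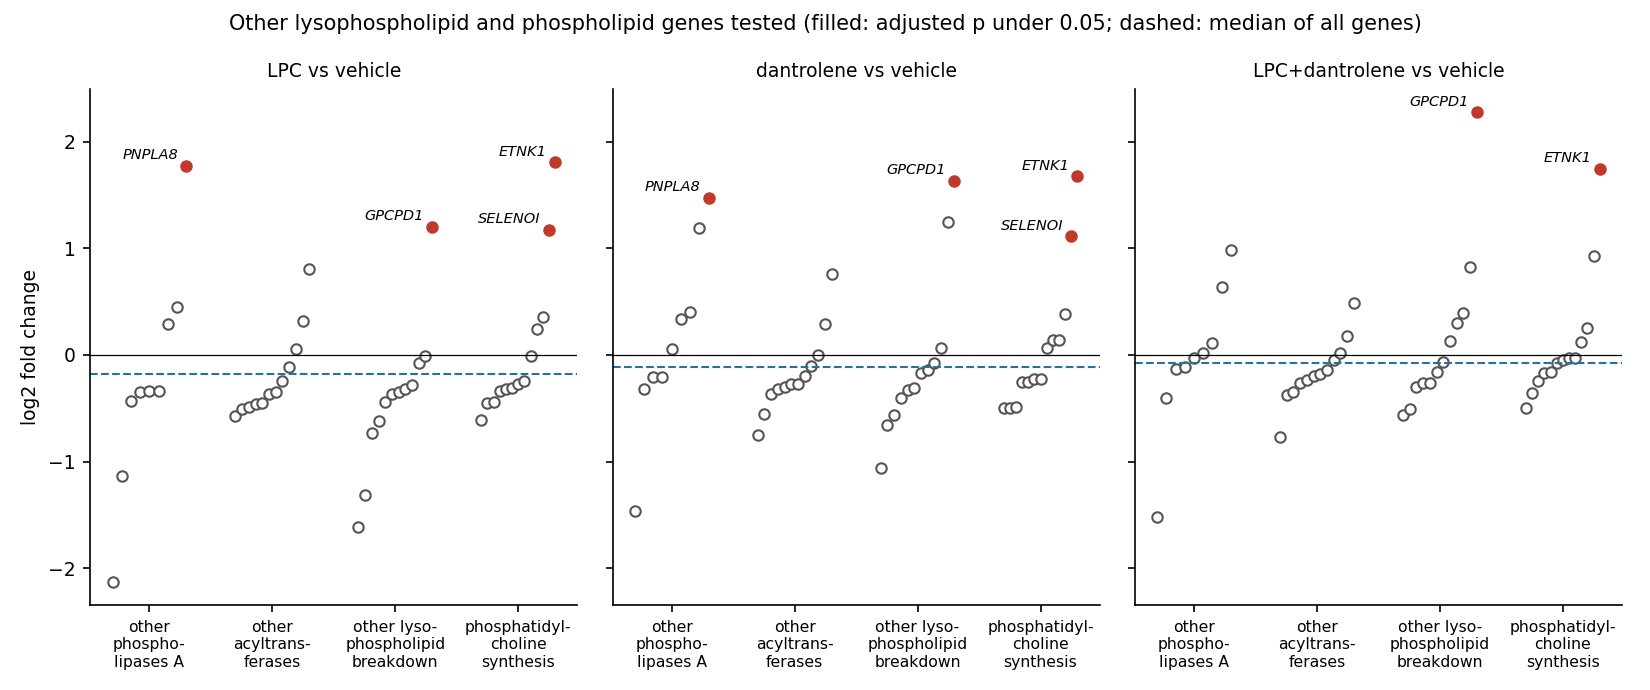
Log2 fold change (vertical axis) of the 46 tested genes of 4 lists in the comparisons of LPC, dantrolene and LPC + dantrolene with vehicle, 1 symbol a gene, ordered within each list. Filled symbols mark an adjusted p under 0.05 in edgeR and the dashed line the median of all genes. PNPLA8, GPCPD1, ETNK1 and SELENOI are filled with LPC and with dantrolene, and GPCPD1 and ETNK1 with both agents, while the other acyltransferases have no filled symbol.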

How the data were processed

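RNA from 12 libraries of paVICs (4 groups of 3) was sequenced. The authors deposited whole-number counts per Ensembl gene, adjusted for batch with the ComBat function of sva and not scaled for library size. Submitters' notes name HISAT2 2.0.5 and Sscrofa11.1, whereas the study's methods name STAR. The counting tool and annotation release are not given in the sources used here. Strand was not stated, so antisense reads cannot be separated. The tests leave the degrees of freedom spent by ComBat out of account, so p-values can be too small. Deposited DESeq2 1.32.0 tables of 4 comparisons (mean, fold change, error, p) were not used.

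Counts were tested with edgeR 4.0.16 in R 4.3.3 (TMM factors, filterByExpr, quasi-likelihood test, all 12 libraries in 1 fit on group, Benjamini-Hochberg over 13216 genes, threshold 0.05). DESeq2 1.42.0, other scalings, no filter, 2 groups alone, a replicate block and leaving out each library were alternatives. CPM used TMM-scaled totals, and log2 CPM a prior count of 2. Standard errors were derived from the F statistic, and intervals cover 95%. The test code was checked on simulated data with 200 changed genes. These were raised as often as lowered and had no batch adjustment. The check therefore does not bear on whether p-values from the ComBat-adjusted counts are too small. An exact permutation test of 3 against 3 libraries cannot go below p = 0.1 and was not used.

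The labels give replicate numbers and name no isolation. These numbers were taken to mark the 3 isolations of the study's methods, and so to pair libraries. Deviations from the group mean correlated at a median of −0.152 (range −0.536 to 0.207, 18 pairs) within isolations and 0.108 between them (36 pairs). The batch given to ComBat is not named in the sources used here. If it was the isolation, isolation means had been removed, so this check cannot decide on pairing. Named genes were the 9 members, the 3 genes most like PLA2G4A and list genes that were called. AGPAT1, AGPAT5, ENPP2 and marker genes were named after their values were seen. Members and lists were chosen with earlier results of these data known. Levels were not compared between genes because transcript lengths were not used here.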

Additional observations from a re-analysis of the deposited data

Results flagged for a closer look

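For 3 genes the interaction test in edgeR called a difference between the LPC effects with and without dantrolene. For PLA2G4A the effect with dantrolene less that without was −1.67 on the log2 scale (adjusted p = 0.0297), from 0.11 and 1.78. That call was kept in 8 of 17 alternatives, and was lost with DESeq2, the replicate block and total counts alone. For PNPLA8 it was −2.27 (adjusted p = 0.00326), and the call was lost without LPC replicate 2 (0.0847) or dantrolene replicate 2 (0.0768). For ETNK1 it was −1.74 (adjusted p = 0.0226, or 0.0852 with the replicate block), and the call was also lost on total counts alone (0.0775) and without vehicle replicate 2 or 3, LPC replicate 1 or 2, or dantrolene replicate 2 (0.0722 to 0.191). In all 3 genes both agents given alone had raised the level against the shared vehicle libraries.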

How the results depend on the processing

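PLA2G4A was called higher in all 54 alternatives of the 3 comparisons with vehicle, with a highest adjusted p of 0.00964. The number of members called was 1 in every alternative of LPC and of dantrolene against vehicle, and 0 in every alternative of LPC + dantrolene against LPC and against dantrolene. Against vehicle, LPC + dantrolene gave 1 to 2 members when 1 library was left out, with 2 (PLA2G4A and LPCAT3) only without LPC + dantrolene replicate 2. The cause was not tested.

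The interaction gave 1 member as reported and 0 with DESeq2 (PLA2G4A adjusted p = 0.0558), with total counts alone (0.102) and with the replicate block (0.0944). Leaving out 1 library gave 0 to 1, with 0 without vehicle replicate 1, 2 or 3 (0.0577, 0.0739 and 0.0848), LPC replicate 1 or 2 (0.176 and 0.147) or dantrolene replicate 2 (0.223). The pairing through the replicate block changed no other call of a member. The background moved as well: genes called higher numbered 1129 with LPC (674 to 1620 over the alternatives), 997 with dantrolene (379 to 1527) and 824 with both (463 to 1708), and the negative interaction 593 (4 to 877). No called member changed direction in any alternative. Among the 856 values of the 8 other members, 72 changed sign, and none of those was called. A fit to 2 groups alone cannot give the interaction, and the order of the members by level, with its alternative, was not run without transcript lengths. LPCAT2, at 33 to 85 counts a library, was limited most by depth.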
